A study of Mus musculus with 6 samples.

Results

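The collagen genes were the 44 genes of the table whose symbol had the form Col, a type number, the letter a and a chain number, out of 18268 genes listed. Their RNA levels were measured in colorectal tissue of C57BL/6 mice, adult males by the methods of the study, in which colitis had been brought on with dextran sulfate sodium (DSS), which damages the colonic epithelium. All 6 mice had DSS for 7 days and were gavaged for 6 days with 1 of 2 drugs. Berberine (BBR), an alkaloid from plants, went to 3 of them and sulfasalazine (SASP), a prodrug that gut bacteria cleave to an aminosalicylate, to the other 3. The labels name no engineered allele, and a group without a drug was not analysed here, so every difference is one between BBR and SASP. Levels are FPKM, fragment counts scaled to transcript length and library size, which can be compared between genes because length is divided out.

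Collagens are extracellular proteins in which 3 chains wind into a triple helix. Fibrillar collagens form the tensile fibers of the gut wall, type IV chains form the sheet-like network of basement membranes under the epithelium and around vessels and muscle, and the remaining types decorate fibrils, form fine filaments or span the cell membrane. In the colon they are made chiefly by fibroblasts, smooth muscle cells and endothelial cells, and they are laid down anew when injured mucosa is repaired. By these classes 11 members were fibrillar, 6 were basement membrane (type IV) chains and 27 belonged to other types.

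Of the 44 genes, 22 had at least 1 FPKM in at least 3 of the 6 mice and were tested together with all other genes passing that filter, 12072 in all. No member passed the filter through mice of 1 group alone: 17 reached 1 FPKM in all 6 mice and the other 5 in mice of both groups. In the limma model over all tested genes, 5 collagen genes were higher in BBR than in SASP mice at an adjusted p below 0.05, and 0 were lower. They were Col3a1, Col1a1, Col5a3, Col12a1 and Col8a1, and no member was called when BBR mouse 1, BBR mouse 2, SASP mouse 1 or SASP mouse 3 was left out. This was 22.7% of the tested members, while among all tested genes 3.82% were called higher and 5.04% lower in BBR mice. The log2 fold change of log2(FPKM + 1) was above 0 in 21 of 22 tested members and its median was 0.75, against 0.10 over all tested genes, of which 60.8% were above 0. The 3 BBR mice were all higher than the 3 SASP mice in 15 members and all lower in 0, where 21.3% and 16.6% of all tested genes did so. At an unadjusted p of 0.05 or less, the threshold of the study, 17 collagen genes were higher, beside 18.4% of all tested genes.

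**Figure D1:**
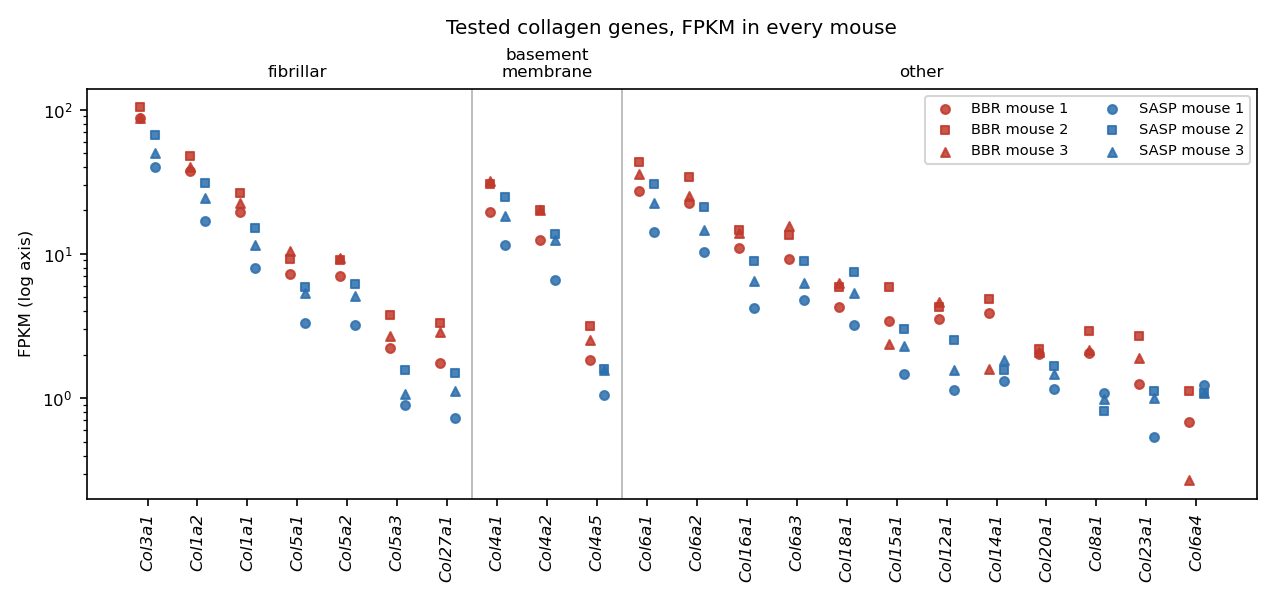
FPKM on a log axis of the 22 tested collagen genes in each of 3 BBR (red) and 3 SASP (blue) mice, by class and ordered by mean level within a class. In Col3a1, the most abundant, the BBR points sit at 87.3 to 104 FPKM and the SASP points at 40.2 to 66.4 FPKM, whereas in Col6a4, at the right end, the BBR points reach from 0.27 to 1.12 FPKM.

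Collagen RNA was a small and uneven part of the total. Col3a1 ranked 1078th of all genes by mean level (72.5 FPKM), followed by Col1a2 (32.8), Col6a1 (28.9), Col4a1 (22.7) and Col6a2 (21.3). These 5 genes held 63.0% to 66.7% of the summed collagen FPKM of a mouse, and the 10 most abundant held 85.2% to 86.7%. The summed FPKM of all 44 members was 292, 402 and 349 in BBR mice 1, 2 and 3 and 139, 261 and 201 in SASP mice 1, 2 and 3. Every BBR sum was thus above every SASP sum, although BBR mouse 1 and SASP mouse 2 were close. The fibrillar class took 50.4% to 55.7% of the collagen sum in BBR and 49.0% to 52.7% in SASP mice, so the shares overlapped. Type IV chains took 11.9% to 15.8% and 14.1% to 16.6%, which also overlapped.

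Fibrillar collagens were the class in which the groups were most often apart. All 7 tested fibrillar genes had a higher level in each BBR mouse than in any SASP mouse, as did 21.3% of all tested genes. Their log2 fold changes ran from 0.73 to 0.95 with a median of 0.80. Of the 7, 3 were called, beside 3.82% of all tested genes called higher. No fibrillar gene was called without BBR mouse 1, BBR mouse 2, SASP mouse 1 or SASP mouse 3. Col3a1 (Gene ID 12825), which encodes the type III chain of the pliable fibers of gut and vessel walls, was at 87.5, 104 and 87.3 FPKM in BBR mice 1, 2 and 3 and at 40.2, 66.4 and 49.8 FPKM in SASP mice 1, 2 and 3. The gap between SASP mouse 2 and the lowest BBR mouse was smaller than the range of the SASP mice. Its log2 fold change was 0.85 (SE 0.19, limma adjusted p = 0.0410). Col1a1 (12842), which encodes the alpha 1 chain of type I collagen, the main tensile fiber protein, was at 19.4, 26.3 and 22.5 FPKM in BBR and at 8.02, 15.2 and 11.5 FPKM in SASP mice. The group means differed 1.97-fold, with a log2 fold change of 0.95 (SE 0.23, adjusted p = 0.0481).

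Col5a3 (53867), a minor fibrillar chain of type V collagen, was at 2.23, 3.78 and 2.68 FPKM in BBR and at 0.90, 1.57 and 1.06 FPKM in SASP mice (a log2 fold change of 0.83, SE 0.20, adjusted p = 0.0483). These 3 calls lay close to the threshold. Just short of it was Col1a2, the partner chain of Col1a1, at 37.4, 47.5 and 40.0 FPKM in BBR and at 16.8, 31.0 and 24.2 FPKM in SASP mice (a log2 fold change of 0.80, adjusted p = 0.0628). Col5a1 and Col5a2, chains of the type V collagen that starts fibril assembly, had log2 fold changes of 0.79 and 0.73 (adjusted p = 0.0645 and 0.0787). Col27a1, a fibrillar chain best known from cartilage, had 0.78 (adjusted p = 0.0701) at 1.75 to 3.33 FPKM in BBR and 0.73 to 1.49 FPKM in SASP mice. The remaining 4 fibrillar genes, the cartilage chains Col2a1, Col11a1 and Col11a2 and the low-level Col24a1, stayed at or below 0.37 FPKM in all mice and were not tested.

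**Figure D2:**
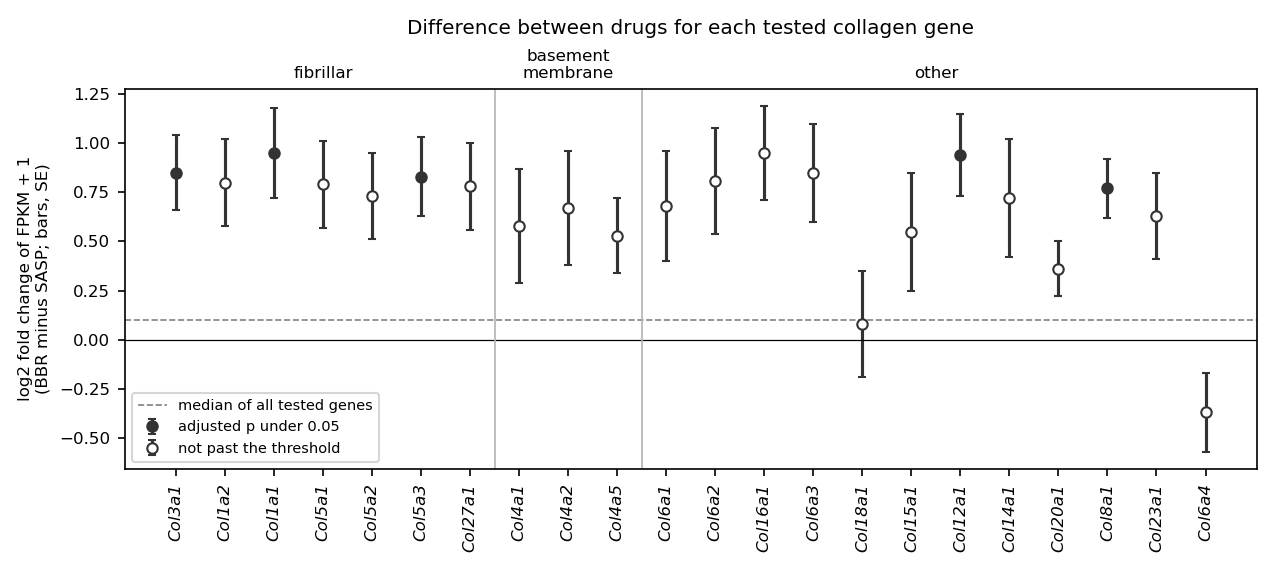
Log2 fold change of FPKM + 1 (BBR minus SASP, points) with its standard error (bars) for the 22 tested collagen genes by class, filled where the adjusted p was below 0.05, with the median of all tested genes (0.10) as a dashed line. The 7 fibrillar genes lie between 0.73 and 0.95, the 3 type IV genes between 0.53 and 0.67, and the other class spreads from -0.37 to 0.95.

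Promoter sequences of the called members are shown because these genes differed in the same direction. RefSeq starts on build GRCm38.p6 were given for 35 of the 44 genes, by symbol, and among the called members for Col3a1, Col5a3 and Col8a1. Col1a1 and Col12a1 had no entry. The 250 bases before each start are printed 5′ to 3′ on the strand of the gene, and hold no annotated exon in GENCODE M21. Capitals mark matches to 4 motifs on either strand: the CCAAT box, the TATA box (searched as TATAAA), the GC box bound by Sp1 (searched as GGGCGG) and the AP-1 site (searched as TGANTCA). No marked match overlaps another.
Col3a1 (chr1:45311288-45311537, plus strand): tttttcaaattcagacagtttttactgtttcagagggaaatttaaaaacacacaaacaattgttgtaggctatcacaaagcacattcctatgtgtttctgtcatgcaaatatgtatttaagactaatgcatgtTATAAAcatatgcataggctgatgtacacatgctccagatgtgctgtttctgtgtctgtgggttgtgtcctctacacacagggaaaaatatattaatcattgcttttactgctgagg
Col5a3 (chr9:20815068-20815317, minus strand): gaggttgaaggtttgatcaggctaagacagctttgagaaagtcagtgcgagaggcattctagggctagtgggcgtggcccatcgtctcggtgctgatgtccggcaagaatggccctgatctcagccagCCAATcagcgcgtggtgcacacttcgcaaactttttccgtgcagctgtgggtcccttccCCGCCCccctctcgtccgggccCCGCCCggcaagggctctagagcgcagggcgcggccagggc
Col8a1 (chr16:57754738-57754987, minus strand): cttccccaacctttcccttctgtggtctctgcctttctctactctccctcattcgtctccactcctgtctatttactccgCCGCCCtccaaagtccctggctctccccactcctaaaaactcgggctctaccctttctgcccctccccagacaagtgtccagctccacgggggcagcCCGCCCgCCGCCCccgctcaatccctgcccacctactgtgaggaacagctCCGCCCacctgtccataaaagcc

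The windows had little in common. Col3a1 held 1 TATA box match and no GC box, Col5a3 held 1 CCAAT box and 2 GC boxes, and Col8a1 held 4 GC boxes and no CCAAT box. GC box letters were present in 65.0% of the 20 windows of tested collagens and in 56.7% of the 12305 windows of all tested genes. Without the filter, they were in 57.9% of 38 collagen windows and in 32.7% of 32851 windows. The 32851 were not limited to genes measured here, unlike the collagen windows, so these 2 shares cover unlike sets. Among tested genes the CCAAT box was in 40.0% of the collagen windows and 35.3% of all, the TATA box in 5.0% and 6.92%, and the AP-1 letters in 5.0% and 4.71%. No share was tested, and a match in letters is not a bound site.

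The tested basement membrane chains had a lower median difference than the fibrillar ones. Of 6 type IV genes 3 were tested, 0 were called, and their log2 fold changes had a median of 0.58. With a pseudocount of 0.1 this median was 0.72, beside 0.90 for the fibrillar class. Col4a1 and Col4a2 encode the chains of the common type IV trimer. Col4a1 was at 19.4, 30.3 and 31.8 FPKM in BBR and at 11.5, 24.7 and 18.4 FPKM in SASP mice, so that SASP mouse 2 exceeded BBR mouse 1 and the groups overlapped (a log2 fold change of 0.58, SE 0.29, adjusted p = 0.216). Col4a2 was at 12.5, 20.2 and 20.0 FPKM in BBR and at 6.58, 13.8 and 12.5 FPKM in SASP mice, again with overlap (0.67, SE 0.29, adjusted p = 0.171). Col4a5, an X-linked chain of the specialised networks of kidney and smooth muscle, had no overlap, at 1.83, 3.15 and 2.51 FPKM in BBR and at 1.05, 1.59 and 1.57 FPKM in SASP mice (0.53, SE 0.19, adjusted p = 0.110). Col4a6 reached 0.83 to 1.31 FPKM in BBR and 0.36 to 0.99 FPKM in SASP mice, and Col4a3 and Col4a4, chains of the kidney filter, did not exceed 0.14 FPKM. The median of the fibrillar class was above that of the type IV class in each of the 15 fits made, but those fits share mice and the difference between classes was not tested.

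Type VI collagen forms beaded filaments beside cells. Col6a3, its longest main chain, was at 9.20, 13.5 and 15.6 FPKM in BBR and at 4.80, 8.86 and 6.26 FPKM in SASP mice (a log2 fold change of 0.85, SE 0.25, adjusted p = 0.0740). Col6a2 was at 22.4, 34.0 and 25.1 FPKM in BBR and at 10.3, 21.3 and 14.7 FPKM in SASP mice (0.81, adjusted p = 0.0930), and in both genes all BBR mice were above all SASP mice. Col6a1 overlapped, at 27.2, 43.6 and 35.9 FPKM in BBR and at 14.2, 30.3 and 22.5 FPKM in SASP mice (0.68, adjusted p = 0.152). Col6a4, an alternative type VI chain, was the 1 tested member with a negative value. It was at 0.68, 1.12 and 0.27 FPKM in BBR and at 1.24, 1.08 and 1.09 FPKM in SASP mice (-0.37, SE 0.20, adjusted p = 0.253), a difference carried by BBR mice 1 and 3.

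The fibril-associated collagens (FACITs) coat the surface of fibrils. Col12a1 (12816), a long chain that bridges type I fibrils and other matrix, was at 3.54, 4.29 and 4.63 FPKM in BBR and at 1.14, 2.52 and 1.56 FPKM in SASP mice. The groups were apart, and the gene was called (a log2 fold change of 0.94, SE 0.21, adjusted p = 0.0415). Col16a1, a fibril-associated chain, was at 10.9, 14.6 and 13.9 FPKM in BBR and at 4.18, 8.86 and 6.49 FPKM in SASP mice. On the log2(FPKM + 1) scale its 0.95 was the largest log2 fold change of all tested members, together with Col1a1. Col16a1 was not called (SE 0.24, adjusted p = 0.0573). That scale understates changes of low genes. The group means differed 2.02-fold for Col16a1, but 2.46-fold for both Col5a3 and Col8a1. Col14a1, which regulates fibril diameter, was at 3.90, 4.89 and 1.58 FPKM in BBR and at 1.31, 1.56 and 1.83 FPKM in SASP mice (0.72, adjusted p = 0.157). Its BBR mouse 3 lay among the SASP mice. Col20a1, the last FACIT tested, had a difference of 0.36 (adjusted p = 0.131).

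Col8a1 (12837), a short network-forming chain of vessel and smooth muscle matrix, had the smallest p of all members. It was at 2.06, 2.92 and 2.14 FPKM in BBR and at 1.09, 0.82 and 0.99 FPKM in SASP mice, and the gap between the groups was wider than the range of the SASP mice (a log2 fold change of 0.77, SE 0.15, adjusted p = 0.0327). SASP mouse 1 was the highest of the SASP mice for Col8a1, as it was for Col6a4 and for no other tested member. The multiplexins Col15a1 and Col18a1, proteoglycan-like collagens of basement membrane zones, were not called. Col15a1 was at 3.43, 5.87 and 2.38 FPKM in BBR and at 1.46, 3.02 and 2.29 FPKM in SASP mice (0.55, adjusted p = 0.239). Col18a1, the precursor of endostatin, was at 4.25, 5.93 and 6.27 FPKM in BBR and at 3.21, 7.47 and 5.34 FPKM in SASP mice. SASP mouse 2 was the highest of all mice for this gene, and its log2 fold change was 0.08 (SE 0.27, adjusted p = 0.863) and with a value of -0.19 without SASP mouse 1 and -0.01 without BBR mouse 3. Col23a1, a transmembrane collagen, was at 1.26 to 2.70 FPKM in BBR and at 0.54 to 1.12 FPKM in SASP mice (0.63, adjusted p = 0.109).

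The 22 members below the filter had a mean of at most 0.98 FPKM and were not tested. Of these, 6 were higher in each BBR mouse than in any SASP mouse, where 13.1% of the 6196 genes not tested lay above. Col17a1 was lower in each BBR mouse, and the share of untested genes that lay below was not counted. The 6 higher genes were Col8a2, Col13a1, Col7a1, Col26a1, Col11a2 and Col4a3. The highest means belonged to Col9a2, Col4a6, Col28a1 and Col8a2. Col9a2, a chain known from cartilage, was at 0.65, 1.97 and 1.35 FPKM in BBR and at 0.28, 0.73 and 0.90 FPKM in SASP mice, with overlap. Col28a1 was at 0.64, 1.52 and 1.09 FPKM in BBR and at 0.23, 0.77 and 0.84 FPKM in SASP mice, also with overlap. Col8a2, the partner of Col8a1, was at 0.77, 1.51 and 0.91 FPKM in BBR and at 0.15, 0.69 and 0.48 FPKM in SASP mice. Col7a1, the anchoring fibril chain that ties epithelium to stroma, was at 0.48, 0.68 and 0.43 FPKM in BBR and at 0.14, 0.16 and 0.23 FPKM in SASP mice. Col17a1, the hemidesmosome collagen of basal epithelial cells, did not exceed 0.14 FPKM, and Col2a1, Col10a1 and Col19a1 did not exceed 0.03 FPKM. At an approximate depth of 16400000 to 18200000 reads per mouse, Col3a1 rested on about 3970 to 9480 reads, Col8a1 on 76.2 to 245, Col7a1 on 23.0 to 103 and Col17a1 on 3.71 to 14.2, so the lowest values rest on few reads.

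The FPKM ratio of Col1a1 to Col1a2, which pair in type I collagen, was 0.518, 0.553 and 0.562 in BBR and 0.478, 0.491 and 0.473 in SASP mice. All BBR ratios were above all SASP ratios. The ratio of Col4a1 to Col4a2 was 1.55 ± 0.0427 in BBR and 1.67 ± 0.170 in SASP mice (SD, n = 3 each), and the ratio of Col6a1 to Col6a2 was 1.31 ± 0.112 and 1.44 ± 0.0743. The ratio of Col5a1 to Col5a2 was 1.06 ± 0.0624 and 1.01 ± 0.0476, that of Col3a1 to Col1a1 was 4.11 ± 0.348 and 4.57 ± 0.377, and that of Col6a3 to Col6a1 was 0.361 ± 0.0650 and 0.303 ± 0.0305. In each of these 5 the groups overlapped. The ratios were not tested. Some members are also neighbours in the genome. Col4a1 and Col4a2, Col6a1 and Col6a2, and Col3a1 and Col5a2 adjoin each other among protein-coding genes on chromosomes 8, 10 and 1, with log2 fold changes of 0.58 and 0.67, 0.68 and 0.81, and 0.85 and 0.73.

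The mice kept a similar order across members. SASP mouse 1 had the lowest value of all mice in 20 of 22 tested members, and BBR mouse 2 the highest in 15. Within the BBR group mouse 1 was lowest in 18, and within the SASP group mouse 2 was highest in 19. The size of the difference therefore moved with single mice. Without SASP mouse 1 the median log2 fold change of the tested members was 0.57 and 0 were called. Without BBR mouse 1, BBR mouse 2 or SASP mouse 3, also 0 were called, and without SASP mouse 2 the 3 calls were Col1a1, Col3a1 and Col12a1. In these 5 fits the share of all tested genes called higher was lower too, at 0.0753%, 0.185%, 0.573%, 0.0503% and 1.28% in that order. Without BBR mouse 3, 8 members were called higher, beside 22.3% of all tested genes. Among the other settings, calls higher in BBR mice numbered 1 with no filter (Col26a1, with 1.23% of all genes), 4 with a filter on the mean (3.49%), 3 with a pseudocount of 0.1 (3.44%), 6 with quantile normalization (6.15%), 5 with median-ratio scaling (5.23%) and 4 with no variance trend (3.49%). Array weights, which lower the influence of variable libraries, gave 15 members higher and 1 lower (Col6a4), beside 38.4% and 20.6% of all tested genes.

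Like the collagen sum, the marker sums of fibroblasts, smooth muscle and endothelium were higher in every BBR mouse than in any SASP mouse. Divided by the mean over all mice, these marker sums were 1.07, 2.25 and 1.03 in BBR mouse 3. The sums of fibrillar, type IV and other collagens were 1.25, 1.38 and 1.25 in that mouse. Whether collagens followed the markers from mouse to mouse was not tested. In bulk tissue, fewer cells of a type and less RNA per cell cannot be told apart. Of 10 fibroblast markers all 9 tested had positive log2 fold changes (median 0.61) and 2 were called, Thy1 (0.84, adjusted p = 0.0399) and the fibril-binding proteoglycan Lum (1.32, adjusted p = 0.0444), where 3.82% of all tested genes were called higher. Their summed FPKM was 187 to 279 in BBR mice and at most 150 in SASP mice. All 12 smooth muscle markers were positive (median 1.22) with 0 called and a smallest adjusted p of 0.0693. They summed to 3600, 3900 and 8270 FPKM in BBR mice and to at most 3000 in SASP mice, so BBR mouse 3 stood apart. Of 10 endothelial markers all 9 tested were positive (median 0.59) and 2 were called, Emcn and Cldn5. These 4 marker calls were all lost without BBR mouse 1, BBR mouse 2, SASP mouse 1 or SASP mouse 3, and those of Thy1 and Cldn5 also without SASP mouse 2. None of the markers in these 3 lists was at 0 in all mice.

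**Figure D3:**
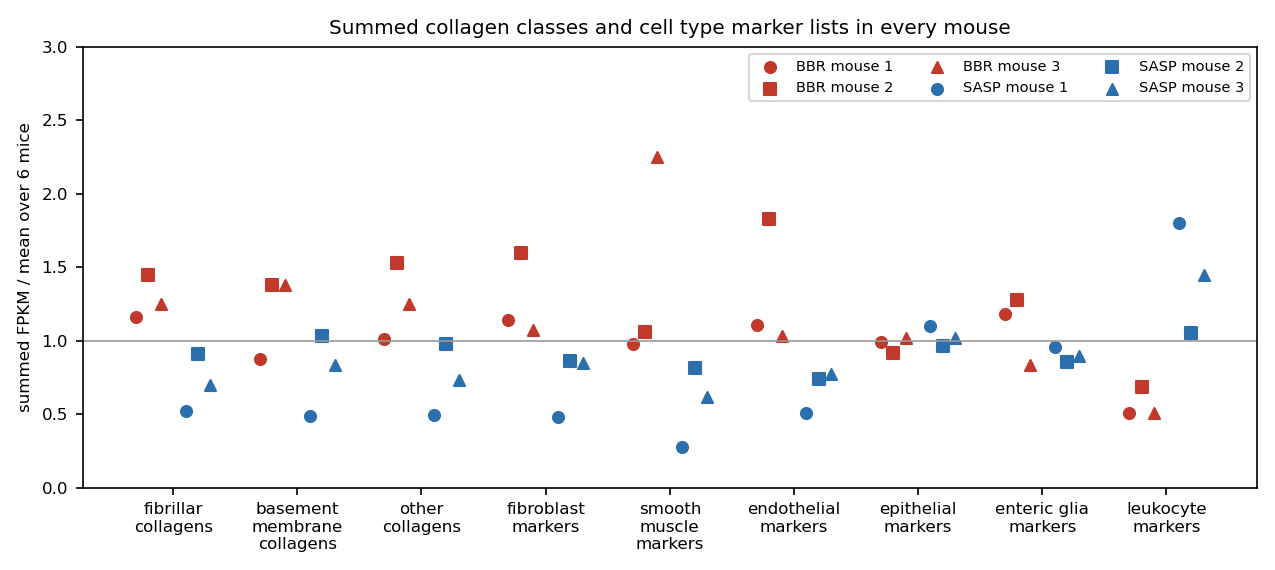
Summed FPKM of each collagen class and of each cell type marker list in every mouse, divided by the mean over the 6 mice (grey line at 1). SASP mouse 1 is the lowest for all 3 collagen classes (0.491 to 0.523) and for fibroblast, smooth muscle and endothelial markers (0.276 to 0.509), and it is the highest for leukocyte markers (1.80).

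The ratio of summed collagen to summed fibroblast marker FPKM was 1.47, 1.44 and 1.87 in BBR mice 1, 2 and 3 and 1.65, 1.74 and 1.36 in SASP mice 1, 2 and 3, with overlap. A marker sum is weighted toward its most abundant genes and is not a measure of cell number. The ratio to endothelial markers overlapped too, at 8.90 to 13.7 and 10.5 to 14.3, and so did that to smooth muscle markers, at 0.0422 to 0.103 and 0.0871 to 0.137. Relative to epithelial markers, whose sum differed little between groups (8530 and 8990 FPKM on average), all BBR ratios of summed collagen were above all SASP ratios. Taken by class, this held for fibrillar collagens only. Type IV chains overlapped (0.00402 in BBR mouse 1, 0.0049 in SASP mouse 2), and so did the other types (0.0109 and 0.011 in these mice). With the mean of the smooth muscle markers in the model, 0 collagens were called and the median was 0.32, in a fit in which 0.0166% of all genes were called higher. Leukocyte markers went the other way, with 6 of 8 tested genes negative and a median of -0.84. The 1 called, beside 5.04% of all tested genes called lower, was the neutrophil gene S100a8 (-3.49, adjusted p = 0.0365). It was at 0, 0 and 6.19 FPKM in BBR and at 18.5, 20.6 and 23.1 FPKM in SASP mice, and was called in 6 of 14 alternative fits. Of the 10 epithelial markers Krt18 and Cdx2 were called higher and Vil1 lower, beside 3.82% and 5.04% of all tested genes. These 3 calls were lost without BBR mouse 1 or without SASP mouse 1. Every BBR mouse was above every SASP mouse in 2 epithelial markers and below in 3. The 3 lower ones included Krt20 (-1.18, adjusted p = 0.0613) and Cldn7 (-0.45, adjusted p = 0.0831), so the epithelial sum hides shifts in both directions. The part of these cell types in the collagen differences was not tested. As to the tissue label, all 10 colon markers passed the filter, among them the mucin Muc2 and the hindgut factor Hoxd13, and 0 were called. Of these markers, 3 separated the groups: the carbonic anhydrases Car1 (1200 to 2345 FPKM in BBR and 71.8 to 853 FPKM in SASP mice, 2.48, adjusted p = 0.0950) and Car2 (0.96, adjusted p = 0.0503) were higher in every BBR mouse, and the proton pump subunit Atp12a (-1.13, adjusted p = 0.0657) was lower. Among all tested genes, 21.3% were higher in every BBR mouse than in any SASP mouse and 16.6% were lower. SASP mouse 1 was the lowest for Car1 and Car2, as for most collagens.

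Genes that modify, fold, export, cut and crosslink collagen were followed in a list of 36, of which 35 were in the table and 25 were tested. Of these, 2 were called higher (8.0%, beside 3.82% of all tested genes) and 0 lower, 19 of 25 were positive (60.8% of all tested genes) and the median log2 fold change was 0.47. Both calls, Fkbp14 and Loxl1, were lost when any mouse except BBR mouse 3 was left out, and without BBR mouse 3 there were 6 calls, 5 of them higher, in the fit that called 22.3% of all genes higher. Without BBR mouse 1 there was 1, and without any of the remaining 4 mice there were 0. Fkbp14 (231997), a prolyl isomerase that helps fold collagen in the endoplasmic reticulum, was at 3.69, 3.49 and 3.52 FPKM in BBR and at 1.59, 1.76 and 2.18 FPKM in SASP mice. The BBR mice varied little and were clear of the SASP mice (0.69, SE 0.13, adjusted p = 0.0307). Loxl1 (16949), a lysyl oxidase that crosslinks elastin and collagen, was at 4.23, 5.45 and 3.71 FPKM in BBR and at 1.17, 2.39 and 2.20 FPKM in SASP mice (0.92, SE 0.22, adjusted p = 0.0469).

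The collagen chaperone Serpinh1 (HSP47) was at 33.8, 54.9 and 55.1 FPKM in BBR and at 20.9, 27.1 and 27.5 FPKM in SASP mice. All BBR mice were above all SASP mice, and its value was just short of the threshold (0.88, SE 0.21, adjusted p = 0.0504). P3h4, a partner of the lysyl hydroxylase complex, and the prolyl 3-hydroxylase P3h1 had 0.85 and 0.60 (adjusted p = 0.0528 and 0.0614). Propeptide processing genes were positive in 3 of 3 tested, with 0.63 for the enhancer Pcolce and 0.70 for the C-proteinase Bmp1, and none was called. Of the 25 genes 6 had values of the opposite sign. The lysyl hydroxylase Plod3 was at 8.87, 10.3 and 7.06 FPKM in BBR and at 11.8, 11.6 and 10.8 FPKM in SASP mice, without overlap (-0.36, adjusted p = 0.147). P4hb, the beta subunit of prolyl 4-hydroxylase and a general disulfide isomerase, was at 177, 176 and 221 FPKM in BBR and at 267, 270 and 239 FPKM in SASP mice (-0.44, adjusted p = 0.0746), also without overlap, and the secretory cyclophilin Ppib had -0.13 (adjusted p = 0.428).

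**Figure D4:**
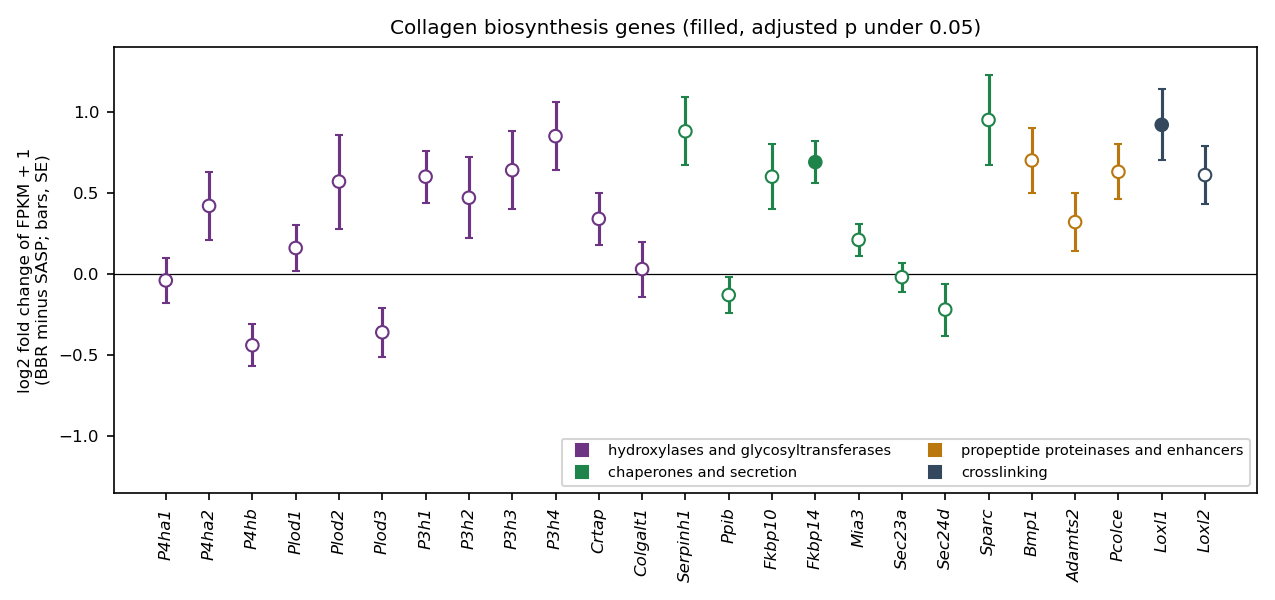
Log2 fold change of FPKM + 1 (BBR minus SASP, points) with its standard error (bars) for the 25 tested collagen biosynthesis genes, colored by step and filled where the adjusted p was below 0.05. Fkbp14 (0.69) and Loxl1 (0.92) are the 2 filled points, and values run from -0.44 for P4hb to 0.95 for Sparc, a collagen-binding matricellular protein.

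Collagen receptors were listed as 10 genes, of which 8 were tested, 0 were called and 7 were positive (median 0.47). Mrc2, an endocytic receptor through which fibroblasts clear collagen, was at 1.36, 2.11 and 1.59 FPKM in BBR and at 0.65, 0.96 and 0.87 FPKM in SASP mice, without overlap (0.55, adjusted p = 0.0718). It reached 1 FPKM in BBR mice only, so it passed the filter through the group where it was high, and its difference is given as a description. Lair1, an inhibitory receptor of leukocytes, was the 1 negative gene, at 0.59 to 0.79 FPKM in BBR and 1.10 to 1.47 FPKM in SASP mice (-0.43, adjusted p = 0.0889). It passed the filter through SASP mice alone, and its value is likewise a description. Gp6, the collagen receptor of platelets, had 0.67 (adjusted p = 0.114). Among the others, the fibroblast receptor Ddr2 and the integrin chain Itga1 had 0.65 and 0.66 (adjusted p = 0.159 and 0.191), with overlapping groups, and the integrin chain Itga2, which is also made by epithelium, had 0.03 (adjusted p = 0.929).

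**Figure D5:**
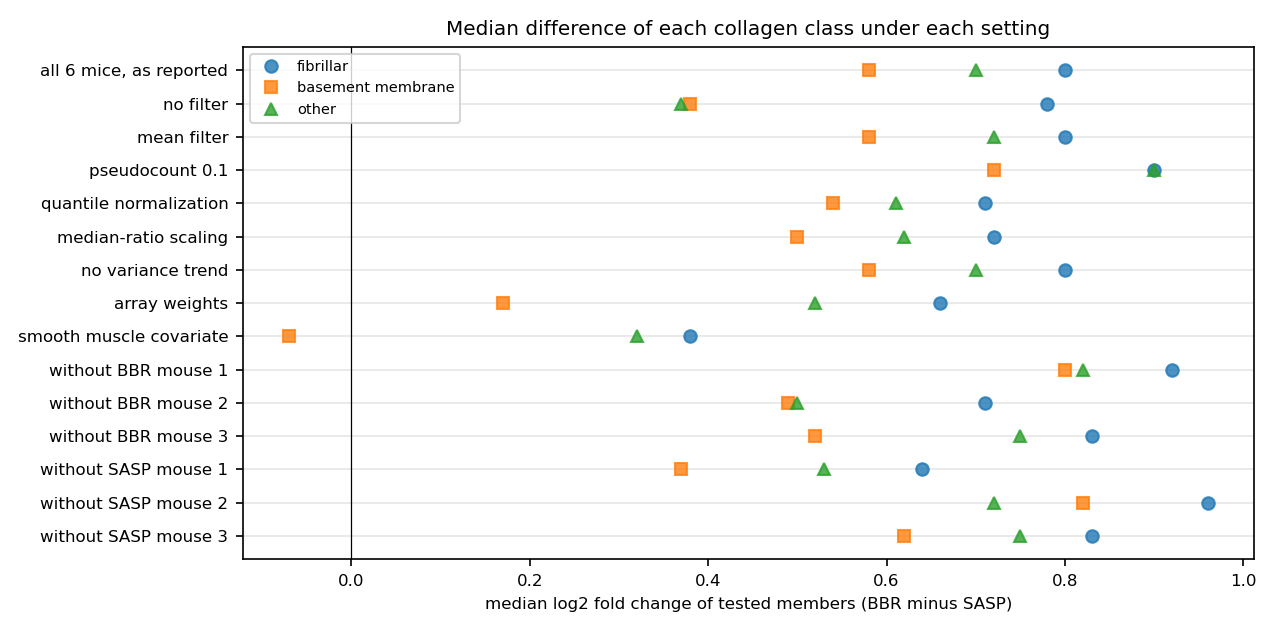
Median log2 fold change (BBR minus SASP) of the tested members of each collagen class, with all 6 mice as reported and under each other setting or left-out mouse. The fibrillar median stays between 0.38 and 0.96, while the type IV median falls to -0.07 with the smooth muscle covariate and 0.17 with array weights.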

How the data were processed

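RNA sequencing values of 6 colorectal samples, 3 per drug by the treatment label, were analysed. The authors deposited FPKM values, rounded to 2 decimals, that they had calculated with RSEM 1.2.12 after alignment with Bowtie2 2.2.5. The submitters' processing notes name build mm9, and the annotation is not given in the sources used here. The study describes rRNA depletion and single-end reads on DNA nanoballs, whereas the labels name an Illumina kit. Nothing says whether mice shared a cage or a preparation day, so p-values measure the spread between these samples. Replicate numbers followed accession order and pair no mice.

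FPKM are not counts, and no count model was used. Values were transformed as log2(FPKM + 1), which understates changes of low genes. Genes with at least 1 FPKM in at least 3 samples were compared with limma 3.58.1 in R 4.3.3 (linear model, empirical Bayes, mean-variance trend, two-sided, Benjamini-Hochberg over 12072 genes, threshold 0.05). The procedure was tested on simulated data in which 200 of 12072 genes were changed. It called 56% of those with a log2 shift of 1 and 92% of those with a shift of 2, and 5.73% of its calls were false. The simulated noise was independent between genes, so shifts of whole mice across many genes were not covered. RSEM divides reads shared by similar genes. Read totals were not analysed here. Depth was approximated from genes above 0 in 1 mouse only with a GENCODE M21 transcript below 1500 bases, each taken as 1 read of its longest transcript (31 to 56 genes per mouse).

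Any of the 44 collagens could be named, with values in every mouse for those called, the most abundant of each class and the 4 highest below the filter. Of other lists, called members and up to 3 others with the smallest p could be named. Values of Col7a1 and Col17a1 were given, and Sparc, Pcolce, Bmp1, P4hb, Plod3, Ppib, Muc2, Hoxd13, Ddr2, Itga1 and Itga2 were named after their values were seen. Members, classes and lists were chosen with earlier results of these data known. Of the other lists, enteric glia markers had a median of 0.22 and epithelial markers one of 0.03. Alternatives were no filter, a filter on a mean of at least 1 FPKM, a pseudocount of 0.1, quantile normalization, median-ratio scaling, no variance trend, array weights, a smooth muscle covariate, a wider basement membrane class, the study's threshold and leaving out each mouse.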

Additional observations from a re-analysis of the deposited data

How the results depend on the processing

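Instead of 5 collagen calls there was 1 with no filter (Col26a1), 3 calls remained with a pseudocount of 0.1, and there were 16 calls with array weights, 0 with the smooth muscle covariate and 17 at the unadjusted p. Over all genes 1069 calls became 608 with no filter, 1737 with quantile normalization, 1713 with median-ratio scaling, 7126 with array weights, 19 with the covariate and 3837 at the unadjusted p. Fibrillar calls were 0, 1, 7, 0 and 7 with no filter, a pseudocount of 0.1, array weights, the covariate and the unadjusted p. Calls of the other types were 1, 9, 0 and 9 with no filter, array weights, the covariate and the unadjusted p, and type IV had 1 call, at the unadjusted p. Biosynthesis calls were 0, 1, 4, 12, 0 and 13 with no filter, a pseudocount of 0.1, quantile normalization, array weights, the covariate and the unadjusted p. In these settings, in that order, 1.23%, 3.44%, 6.15%, 38.4%, 0.0166% and 18.4% of all tested genes were called higher. Receptor calls were 4 with array weights and 3 at the unadjusted p. Array weights gave 8 higher and 4 lower of 25 biosynthesis genes, and 3 higher and 1 lower of 8 receptor genes. In that fit 20.6% of all tested genes were called lower. The median of the collagens moved from 0.75 to 0.39 with no filter, where genes near 0 enter, and to 0.32 with the covariate. The class medians moved to 0.38 (fibrillar) and 0.32 (other) with the covariate, to 0.17 (type IV) with array weights and to 0.37 (other) with no filter. Leaving out 1 mouse gave 51 to 4018 calls over all genes, 0 to 8 for collagens (0 without BBR mouse 1, BBR mouse 2, SASP mouse 1 or SASP mouse 3, 3 without SASP mouse 2, 8 without BBR mouse 3), 0 to 4 for fibrillar and for other types, 0 to 0 for type IV, 0 to 6 for biosynthesis genes and 0 to 2 for receptors, and medians of 0.57 to 0.90. The sign turned with the covariate for the type IV median (-0.07), Col4a1 (-0.17), Col4a2 (-0.07), Col18a1 (-0.59) and Gfap (-1.11), with array weights for Col18a1 (-0.21) and Gfap (-0.62), with quantile normalization for Col18a1 (-0.02) and with median-ratio scaling for Cdh1 (-0.01). It turned without BBR mouse 3 for Col18a1 (-0.01) and Gfap (-0.33), without SASP mouse 1 for Col18a1 (-0.19) and Gfap (-0.08) and without SASP mouse 2 for Cdh1 (-0.02), and leaving out 1 mouse took these 3 genes up to 0.31, 0.64 and 0.18 in the order Col18a1, Gfap and Cdh1. The cause was not tested for these changes.

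No paired analysis was possible because the groups share no replicate numbers in the labels. With 3 mice per group, a collagen that was not called cannot be taken as equal in both groups. A wider basement membrane class left the calls at 0 for it and 2 for the other types. Depth is known only approximately, and members below the filter rest on few reads.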
